A study of Arabidopsis thaliana with 24 samples.

Results

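The tau (GSTU) and phi (GSTF) glutathione transferases of Arabidopsis thaliana are the classes with the most genes in this enzyme family of plants, and the 41 genes named GSTU1 to GSTU28 and GSTF2 to GSTF14 were taken from the count table by their locus identifiers. The table held 34218 features, and all 41 members were found, 28 of them tau and 13 phi. Of these, 35 passed the filter on low counts and were tested, among 21315 genes tested in all.

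Roots of 5-day-old seedlings from 4 F1 lines had been kept for 8 h on 1 µM abscisic acid (ABA), the drought hormone, or on mock plates. The lines were crosses of UAS::abi1-1 to the driver lines J0571, J1721 and Q0990 and to the accession C24. Every line therefore carried the transgene for abi1-1, a dominant form of the phosphatase ABI1 that blocks ABA signalling. The transgene is silent without a driver, and only a driver supplies the activator that switches it on. The 8 groups were ABA and mock roots of each cross, with 3 libraries each, and every library was a pool of many seedlings. The labels name no driver's cells. They do not tell whether separate sowings were used, and p-values then cover only how far these pools differed, which may be technical.

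Glutathione transferases join the tripeptide glutathione to electrophilic compounds, and the conjugates are then pumped into the vacuole. Tau and phi enzymes are best known for detoxifying herbicides and oxidized lipids, and many lie in tandem arrays. Several members also carry flavonoids or act in the synthesis of glucosinolates and camalexin, the sulphur-containing defence compounds of this plant family.

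Library totals were 38542817 to 61555387 counts. The first principal component, with 67.8% of the variance, parted ABA from mock libraries. On the second, with 5.49%, mock library 1 lay apart from its replicates in each line. Root hair, endodermis, stele and root cap markers were all counted, and no marker of these was at 0. The 5 shoot mesophyll markers, which roots should lack, summed to 12.5 to 50.5 CPM (reads scaled to a common library size) with 1 of them at 0. ABI1 averaged 304 ± 33.1 CPM in J0571 under ABA, 359 ± 78.4 CPM in J1721, 393 ± 27.8 CPM in Q0990 and 325 ± 50.1 CPM in C24 (SD, n = 3 each). Its mock means ran from 97.7 CPM in C24 to 115 CPM in J0571. These counts do not separate the transgene from the native gene.

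The family was dominated by 4 genes, GSTU19, GSTF9, GSTF8 and GSTF10, which held 68.8% of all tau and phi CPM in ABA roots and 71.2% in mock roots. Levels between genes were compared as CPM per kb of exon, with lengths from the RefSeq annotation of TAIR10.1. GSTU19 (AT1G78380), a safener-induced detoxification enzyme, averaged 1399 ± 148 CPM per kb in ABA roots and 2113 ± 149.9 in mock roots (SD, n = 12 libraries over the 4 lines). GSTF9, a phi enzyme linked to redox balance, had 889 ± 86.3 under ABA and 1009.8 ± 116 in mock. GSTF8, known as a gene induced by oxidative stress and salicylic acid, had 459 ± 43.2 and GSTF10 483 ± 27.0 under ABA, against 629.6 ± 36.1 and 593 ± 40.1 in mock. The mock ranges of these last 2 genes overlapped over the libraries, so their order was not fixed, and it also depends on the length used. GSTF8 has 2395 bases of exon over all its transcripts and 1748 in the longest one. With the shorter length its levels per kb would be higher, while GSTF10 has 1132 bases by both measures. GSTF8 also shares 516 bases on the same strand with the neighbouring locus AT2G47720.

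Below them, GSTU8, GSTU24, GSTU25 and GSTU22 lay between 199.5 and 364 CPM per kb in mock roots. Neighbours overlapped at most steps down the rest of the order, which ended among the 33 members counted in every library at 0.806 under ABA and 1.79 in mock for GSTF2. The mock level of GSTU19 was 676 times that of GSTU11, the lowest tau gene that was counted in every library. GSTU3 and GSTU21 were tested but reached at most 30 and 37 counts in any library. The 6 members below the filter were GSTU2, GSTU12, GSTU15, GSTF3, GSTF5 and GSTF11. GSTF11 had 0 counts in all 24 libraries and GSTF5 had 1, while the other 4 reached at most 18 counts in a library. The annotated span of GSTF11 shares 1096 bases with NAC045, and that of GSTF2 shares 1442 bases with TOC159, each on the opposite strand. Whether the counting used strand, and how it treated reads from such overlaps, is not given in the sources used here. The part of such overlaps in the low counts of GSTF11 and GSTF2 was not tested.

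**Figure D1:**
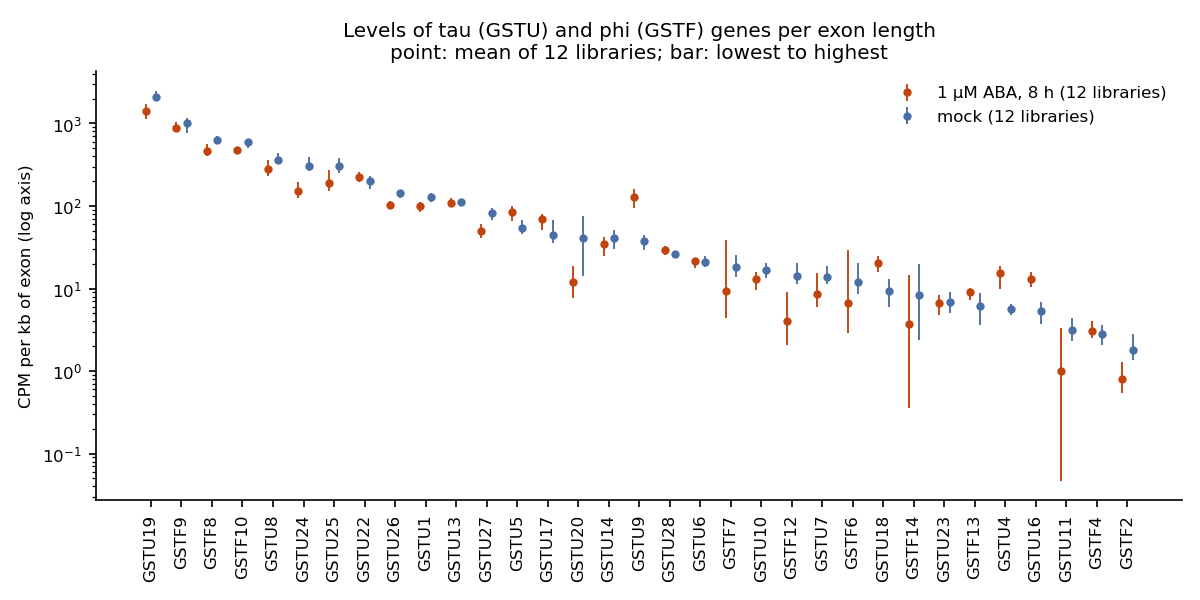
Mean level per exon length (CPM per kb, log axis) of the 33 members counted in every library, for 12 ABA and 12 mock libraries, with bars from the lowest to the highest library. GSTU19 stands highest under both treatments, and GSTU9 shows the widest gap upwards under ABA with 93.9 to 162 CPM per kb against 29.3 to 44.3 in mock.

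Summed over the 41 genes, the family took less of the transcriptome under ABA. The tau sum was 3482 ± 284 CPM in ABA libraries and 4634 ± 311 CPM in mock libraries, and the phi sum was 2784 ± 210.3 CPM under ABA and 3497 ± 223 CPM in mock (SD, n = 12 each). The whole family made up 0.557 to 0.723% of counts under ABA and 0.757 to 0.924% in mock, and within every line the 2 treatments did not overlap. These sums follow the few abundant genes and carry no test. In whole roots, fewer cells of a type and less RNA per cell cannot be told apart.

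In the C24 cross, where the transgene has no driver, 24 of the 35 tested members changed under ABA in the edgeR fit, a quasi-likelihood test whose p-values were adjusted over all genes (Benjamini-Hochberg). That was 68.6% of those tested, beside 34% of all genes tested. Of these, 7 rose, beside 18.6% of all genes, and 17 fell, beside 15.4% of all genes. The median log2 change of the tested members was -0.29, against -0.02 over all genes. Among tau genes 6 rose and 11 fell of 25, and among phi genes 1 rose and 6 fell of 10. Replicates of the groups did not overlap for 25 of 35 members, or 71.4%, beside 43.1% of all genes. In the same libraries the 3 root hair markers summed to 384 to 407 CPM under ABA and 245 to 286 CPM in mock, and all 3 were called higher. The 4 endodermis markers summed to 374 to 403 CPM under ABA and 323 to 360.2 CPM in mock, with 2 called higher. The 4 stele and phloem markers summed to 84.1 to 91.3 CPM under ABA and 73.2 to 81.1 CPM in mock, with 2 called higher and 1 lower. The 3 root cap markers summed to 11.9 to 15.0 CPM under ABA and 15.0 to 15.8 CPM in mock. The shoot mesophyll markers summed to 18.9 to 25.8 CPM under ABA and 23.5 to 50.5 CPM in mock, and 2 of the 3 tested were called lower. The part of such shifts in the GST changes was not tested.

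**Figure D2:**
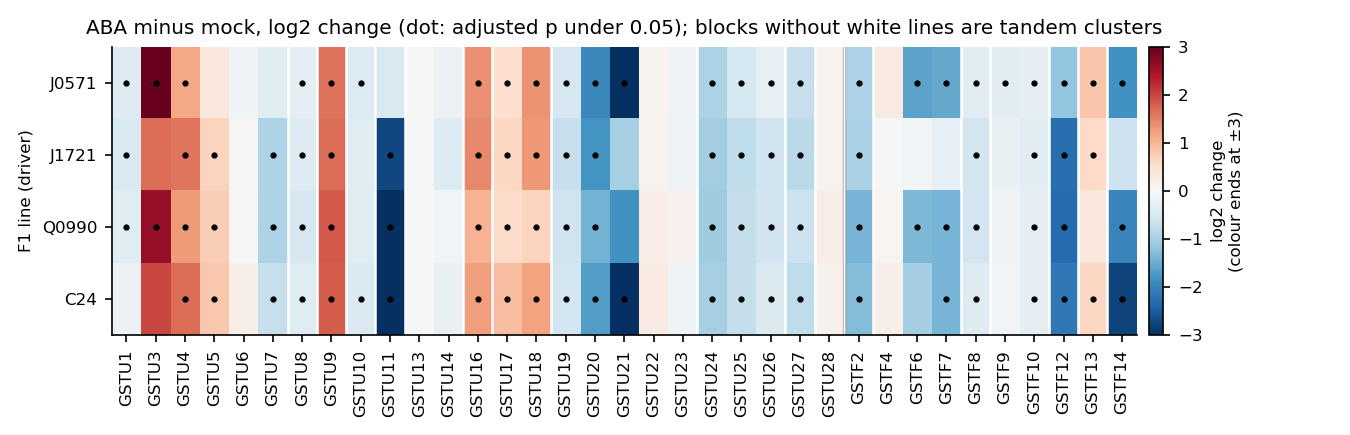
Log2 change under ABA for the 35 tested members (columns, tau left and phi right of the black line) in the 3 driver crosses and in C24 (rows), with a dot where adjusted p was under 0.05. GSTU4, GSTU9, GSTU16, GSTU17 and GSTU18 are red with a dot in all 4 rows, and GSTU11 is blue in 3 rows but pale in J0571.

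The rises in C24 were led by GSTU9 (AT5G62480). It had 167, 112 and 122 CPM in ABA libraries and 45.6, 30.2 and 37.5 CPM in mock libraries. Every ABA library lay far above every mock library, and the log2 change was 1.82 ± 0.15 (SE; adjusted p = 1.67e-09). GSTU4 (AT2G29460), a low-level gene in the middle of the GSTU1 to GSTU7 array, had 22.3, 20.0 and 18.1 CPM under ABA against 6.70, 5.90 and 6.27 CPM in mock, a change of 1.68 ± 0.14 (SE; adjusted p = 1.20e-09). GSTU16 (AT1G59700) stood at 15.3, 15.2 and 15.0 CPM under ABA and 7.73, 5.71 and 5.67 CPM in mock. The ABA replicates of GSTU16 were nearly equal, did not overlap mock, and gave a change of 1.25 ± 0.14 (SE; adjusted p = 9.46e-08).

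GSTU17 (AT1G10370) and GSTU18 (AT1G10360) are direct neighbours, and mutants of GSTU17 are known for altered drought and ABA responses. GSTU18 had 23.8, 25.3 and 18.1 CPM under ABA and 11.6, 7.82 and 9.78 CPM in mock, a change of 1.21 ± 0.18 (SE; adjusted p = 9.94e-06). GSTU17, the more abundant of the pair, had 93.5, 81.0 and 79.7 CPM under ABA and 45.7, 41.4 and 46.1 CPM in mock. Its change was smaller, 0.93 ± 0.16 (SE; adjusted p = 5.29e-05), and no ABA library of either gene reached down to a mock library. The annotated spans of the 2 genes share 71 bases on 1 strand, and their coding sequences were 81.6% identical. The remaining rises were GSTU5 with 0.81 ± 0.12 (SE; adjusted p = 9.64e-06) and the phi gene GSTF13 with 0.63 ± 0.18 (SE; adjusted p = 0.00794).

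The falls reached further than the rises. GSTU11 (AT1G69930) had 0.354, 0.423 and 0.276 CPM in ABA libraries and 3.01, 2.87 and 3.56 CPM in mock libraries. The mock libraries were all above the ABA libraries, and the change was -3.15 ± 0.33 (SE; adjusted p = 6.76e-08). GSTF14 (AT1G49860) had 0.872, 0.423 and 0.851 CPM under ABA against 4.14, 6.10 and 4.44 CPM in mock, a change of -2.78 ± 0.32 (SE; adjusted p = 2.56e-07). GSTF12 (AT5G17220), also known as TT19 and needed to carry anthocyanins to the vacuole, had 2.81, 2.83 and 3.38 CPM under ABA and 12.5, 12.8 and 14.3 CPM in mock. Its replicates were tight and the groups well apart, with a change of -2.13 ± 0.21 (SE; adjusted p = 1.85e-08). GSTF12 shares 108 bases with a gene on the opposite strand.

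GSTU20 (AT1G78370), which binds the jasmonate-conjugating enzyme FIN219 and has been tied to aliphatic glucosinolate synthesis, had 12.7, 8.80 and 11.9 CPM under ABA and 16.5, 49.9 and 39.7 CPM in mock. Mock library 1 was far below its replicates and still above every ABA library, and the change was -1.67 ± 0.34 (SE; adjusted p = 4.27e-04). GSTF7 (AT1G02920) had 7.40, 5.66 and 10.8 CPM under ABA and 26.6, 19.0 and 17.5 CPM in mock, a change of -1.40 ± 0.42 (SE; adjusted p = 0.0115). That call was lost without ABA library 2 (adjusted p = 0.061) and without the mock libraries numbered 1 (adjusted p = 0.0552). GSTF2, which binds auxin and camalexin, also fell, with a log2 change of -1.30 ± 0.31 (SE; edgeR adjusted p = 0.00185).

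The abundant genes fell by less. GSTU19 had 1630.0, 1463 and 1588 CPM in ABA libraries against 2484, 2192 and 2337 CPM in mock libraries, with no overlap, and its change was -0.58 ± 0.09 (SE; adjusted p = 1.53e-05). GSTF8 changed by -0.38 ± 0.07 (SE; adjusted p = 8.18e-05) and GSTF10 by -0.29 ± 0.07 (SE; adjusted p = 0.0011). GSTF9 was the exception among the 4 leading genes in C24, at -0.08 ± 0.10 (SE; adjusted p = 0.567) with overlapping groups. It was called lower in J0571, at -0.31 (edgeR adjusted p = 0.0289), a call that held in 9 of 12 alternatives. GSTF9 was also called lower in the average over the lines, but not in J1721 or Q0990. In C24, GSTU24 and GSTU25, both known for conjugating the explosive TNT, changed by -0.99 ± 0.10 and -0.72 ± 0.11 (SE). GSTU27, GSTU26, GSTU8, GSTU7 and GSTU10 made up the other falls, between -0.75 and -0.37. The call for GSTU7 was lost without ABA library 3, mock library 1 or the mock libraries numbered 1 of all lines (adjusted p up to 0.0913), and that for GSTU10 without ABA library 2 or 3, mock library 1 or the mock libraries numbered 1 (up to 0.194). GSTU21 was at 0 counts in all 3 C24 ABA libraries and had 28 counts over the mock libraries, which makes it at least 9.27-fold lower under ABA when the 3 ABA libraries together are set to the floor of 3 counts.

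The 250 bases before the annotated start are printed for the 3 members with the largest called rises in C24 and for GSTU11, the largest called fall among members with a mean log2 CPM of at least 1 (which leaves out GSTU21), to show where the ACGTG core of the ABA-responsive element lies. Sequences and coordinates are from the RefSeq genome of TAIR10.1, which is of the Columbia accession, while the plants here are C24 crosses and the build behind the counts is not given in the sources used here. Each runs 5′ to 3′ along the gene's strand, and capitals mark ACGTG on either strand.
GSTU9, chr5:25089627-25089876, minus strand: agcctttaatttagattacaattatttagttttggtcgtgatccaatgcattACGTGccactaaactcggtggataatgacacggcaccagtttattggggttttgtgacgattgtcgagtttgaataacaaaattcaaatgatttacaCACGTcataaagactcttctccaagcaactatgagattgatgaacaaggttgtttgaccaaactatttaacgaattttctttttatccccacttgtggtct
GSTU4, chr2:12627892-12628141, minus strand: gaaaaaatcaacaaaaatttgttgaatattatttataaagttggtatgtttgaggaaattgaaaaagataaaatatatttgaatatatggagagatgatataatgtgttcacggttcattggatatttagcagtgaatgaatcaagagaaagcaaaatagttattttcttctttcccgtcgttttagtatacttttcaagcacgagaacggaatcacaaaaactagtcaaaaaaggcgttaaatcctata
GSTU16, chr1:21936028-21936277, plus strand: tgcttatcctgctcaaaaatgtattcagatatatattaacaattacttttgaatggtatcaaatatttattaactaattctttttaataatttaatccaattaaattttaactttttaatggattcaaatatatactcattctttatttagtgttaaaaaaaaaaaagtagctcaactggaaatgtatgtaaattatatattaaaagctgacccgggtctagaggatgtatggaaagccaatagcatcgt
GSTU11, chr1:26338819-26339068, minus strand: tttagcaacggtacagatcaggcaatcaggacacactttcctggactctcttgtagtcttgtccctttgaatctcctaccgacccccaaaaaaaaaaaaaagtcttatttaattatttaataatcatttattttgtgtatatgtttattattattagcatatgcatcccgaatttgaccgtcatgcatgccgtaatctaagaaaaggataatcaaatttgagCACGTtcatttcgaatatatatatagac
GSTU9 held ACGTG at 198 and 101 bases before the start, the nearer one on the opposite strand. No ACGTG lay in the windows of GSTU4 and GSTU16, and that of GSTU11 held 1 at 28 bases before the start. Over the family, 15 of 41 windows (36.6%) held ACGTG, beside 22.9% of 27443 genes. By response in C24, it was found in 3 of 7 members that rose, 4 of 17 that fell and 6 of 11 that were tested and not called. TGACG, the core of the as-1 element bound by TGA factors and known from xenobiotic induction of GST genes, was in 14 of 41 windows (34.1%) beside 18.6% of genes, searched on both strands. It occurred in 2 of 7 that rose, 7 of 17 that fell and 4 of 11 that were tested and not called. A single base stretch such as TGACGTG counts for both motifs. These counts describe letters in 1 genome and carry no test.

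Tandem arrays differed in how alike their members were. In the GSTU1 to GSTU7 array on chromosome 2, GSTU4 and GSTU5 rose in C24 while GSTU7 fell. GSTU5 had 110.3, 106 and 120.2 CPM under ABA and 58.0, 61.3 and 72.8 CPM in mock, and the groups did not overlap. GSTU7 had 9.01, 7.06 and 5.25 CPM under ABA and 14.2, 10.1 and 10.4 CPM in mock, a change of -0.70 ± 0.22 (SE; adjusted p = 0.0138). GSTU6 lies between GSTU5 and GSTU7 and was not called, with a change of 0.18 ± 0.10 (SE; adjusted p = 0.162) and overlapping groups. GSTU1 at the other end changed by -0.18 ± 0.08 (SE; adjusted p = 0.0978) in C24 and fell in the 3 driver crosses, by 0.38 in J0571, 0.47 in J1721 and 0.37 in Q0990 on the log2 scale. Part of GSTU7, 636 bases, lies opposite an annotated long non-coding RNA.

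The GSTU19 to GSTU23 array on chromosome 1 was split as well. GSTU19 and GSTU20 fell, while GSTU22 and GSTU23 were called in no line. GSTU21, with at most 37 counts in any library, was called lower in C24 and J0571 and not called in J1721 or Q0990. Its log2 change in J0571 was -3.72 (edgeR adjusted p = 0.00499). GSTU22 had 270.5, 209.9 and 273 CPM under ABA and 222, 194 and 219 CPM in mock, and its log2 change in C24 was 0.25 ± 0.11 (SE; adjusted p = 0.0972). By contrast, all 3 genes of the GSTU24 to GSTU26 array fell in all 4 lines, and both genes of GSTU17 and GSTU18 rose in all 4. Both genes of the GSTU13 and GSTU14 pair, of which GSTU13 acts in the indole glucosinolate pathway, were called in no line. Coding identity within the classes exceeded 90% for 2 of 456 pairs, GSTF2 with GSTF3 (94.5%) and GSTF6 with GSTF7 (94.3%), and no pair shared a stretch as long as the 150-base reads.

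**Figure D3:**
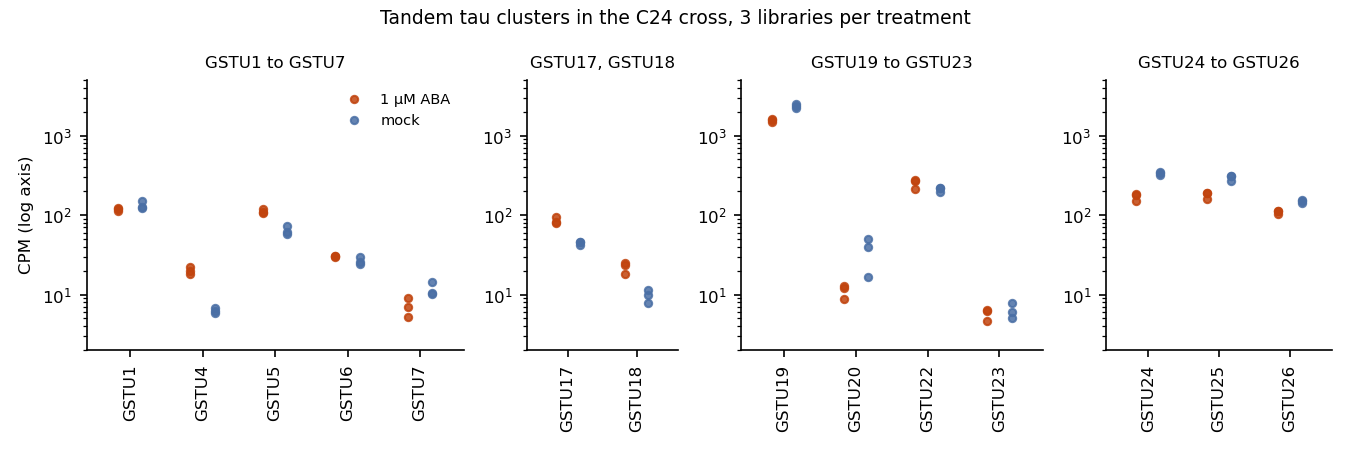
CPM (log axis) of members of 4 tandem tau clusters in the C24 cross, 3 ABA libraries left of 3 mock libraries for each gene. In the GSTU1 to GSTU7 panel GSTU4 is higher and GSTU7 lower under ABA, while the 3 genes of the GSTU24 to GSTU26 panel are all lower.

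The ABA response was largely shared by the driver crosses. In J0571, 25 of 35 tested members changed, 7 up and 18 down, beside 24.3% of all genes (14.4% up and 9.87% down). In J1721, 21 changed, 7 up and 14 down, beside 28.6% (15.8% up and 12.7% down). In Q0990, 24 changed, 7 up and 17 down, beside 31.2% (17% up and 14.2% down). The median log2 change of the members was -0.28 in J0571, -0.32 in J1721, -0.36 in Q0990 and -0.29 in C24, with medians of all genes between -0.02 and 0.01. Averaged over the 4 lines, 31 members changed, 10 up and 21 down, beside 55.2% of all genes (27.6% up and 27.6% down).

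The members called higher in all 4 lines were GSTU4, GSTU9, GSTU16, GSTU17 and GSTU18, 5 of 35 beside 10.1% of all genes. GSTU9 stood at 96.8, 122 and 123 CPM under ABA in J0571, 119, 150.1 and 142 CPM in J1721 and 164, 119 and 142 CPM in Q0990. Mock libraries of these lines held 32.1 to 43.7 CPM of it, and the log2 changes were 1.64, 1.68 and 1.83. GSTU17 rose least of these, by 0.51 ± 0.16 in J0571, where leaving out ABA library 2, ABA library 3 or mock library 1 ended the call (adjusted p up to 0.102). In Q0990 its change was 0.57 ± 0.16, and the call was lost without mock library 1 (adjusted p = 0.0605).

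The remaining shared rises were seen in each driver cross with no overlap of its ABA and mock libraries. Over the 9 ABA libraries of these crosses GSTU4 ran over 11.6 to 20.7 CPM, against 5.59 to 7.72 CPM over their 9 mock libraries, with no overlap. On the log2 scale it rose by 1.17 (J0571), 1.61 (J1721) and 1.27 (Q0990). GSTU16 ran over 11.7 to 18.0 CPM under ABA and 4.20 to 7.68 CPM in mock, with changes of 1.38 in J0571, 1.43 in J1721 and 1.05 in Q0990. GSTU18, at 16.3 to 23.9 CPM under ABA and 6.07 to 13.4 CPM in mock, changed by 1.35 in J0571, 1.31 in J1721 and 0.67 in Q0990. The smaller value in Q0990 was not called different from C24 (adjusted p = 0.943). GSTU5 rose in J1721 and Q0990, by 0.67 and 0.75. In J0571 its change was 0.33 ± 0.12 (SE; adjusted p = 0.0507) with overlapping groups. It was called with a replicate block (adjusted p = 0.0309) and without ABA library 1 (0.0434), ABA library 3 (0.05) or mock library 2 (0.0134).

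The members called lower in all 4 lines were GSTU8, GSTU19, GSTU20, GSTU24, GSTU25, GSTU26, GSTU27, GSTF2, GSTF8, GSTF10 and GSTF12, 11 of 35 beside 5.65% of all genes. Of these calls, GSTU8 in J0571 was lost without ABA library 1 or 3 or mock library 2 (adjusted p up to 0.264), without the mock libraries numbered 1 (0.0592) and in a fit of the 2 groups compared (0.0973), and it was called in 7 of 12 alternatives. GSTF2 was lost in J0571 without ABA library 1 or 3 or mock library 3 (adjusted p up to 0.173), and in J1721 without ABA library 2 or 3 or mock library 2 (adjusted p up to 0.09).

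Among these shared falls, GSTU19 ran over 1283 to 1916 CPM in the 9 ABA libraries of the driver crosses and 2158 to 2786 CPM in their 9 mock libraries, with no overlap. Its changes, -0.51 in J0571, -0.68 in J1721 and -0.61 in Q0990, stand beside -0.58 in C24. GSTU24 spanned 152 to 235 CPM under ABA and 324 to 469 CPM in mock, and its changes were -0.95, -1.04 and -1.07 in the same order of lines. GSTU20 had 17.5, 21.4 and 15.9 CPM under ABA and 86.5, 62.8 and 58.4 CPM in mock in J0571. In J1721 it had 19.0, 8.72 and 12.2 CPM under ABA and 58.4, 39.9 and 42.1 CPM in mock. In Q0990 it had 13.1, 12.5 and 13.5 CPM under ABA and 16.6, 44.6 and 43.8 CPM in mock. Mock library 1 of Q0990 was far below its replicates, as in C24, while mock library 1 was the highest of 3 in J0571 and J1721. The log2 changes of GSTU20 were -1.92 in J0571, -1.80 in J1721 and -1.42 in Q0990.

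Of the other tested members, 7 were called in no line: GSTU6, GSTU13, GSTU14, GSTU22, GSTU23, GSTU28 and GSTF4. Some were called when a library was left out: GSTU22 in C24 without ABA library 2 (adjusted p = 0.0199), GSTU14 in J1721 without ABA library 3 or mock library 3 (0.0259 and 0.0405), and GSTF4 in J0571 without mock library 1 (0.0464). DESeq2 also called GSTU14 in J1721 (0.0412), and a fit of the 2 groups compared called GSTU22 in Q0990 (0.0473). Among these, GSTU13 ran over 127 to 161 CPM under ABA and 131 to 153 CPM in mock in the driver crosses, with changes between -0.05 and 0.04 over the 4 lines. No member was called higher in one line and lower in another. GSTU3, at under 1 CPM everywhere, was called higher in J0571 and Q0990, and the Q0990 call was lost without ABA library 2 or without any one of the mock libraries (adjusted p up to 0.218).

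The near-identical neighbours GSTF6, an enzyme of camalexin synthesis, and GSTF7 depended on 1 library in J1721. GSTF7 had 47.3, 9.85 and 8.08 CPM in J1721 ABA libraries and 18.0, 30.3 and 30.6 CPM in mock libraries, and GSTF6 had 34.8, 6.84 and 7.04 CPM under ABA and 12.1, 16.4 and 23.9 CPM in mock. ABA library 1 alone was above every mock library for both genes. With it, the changes were -0.25 ± 0.40 (SE; adjusted p = 0.696) and -0.09 ± 0.39 (SE; adjusted p = 0.903). Without it they were -1.55 (adjusted p = 5.23e-05) and -1.33 (adjusted p = 4.71e-04), beside -1.55 and -1.60 in J0571, -1.41 and -1.36 in Q0990, and -1.40 and -1.01 in C24.

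Differences in ABA response between lines were tested as interactions. Against C24, the response differed for 1 member in J0571, beside 0.403% of all genes, for 1 member in J1721, beside 0.169%, and for 0 members in Q0990, where edgeR called 0% of all genes. At an unadjusted p under 0.05 there were 7 of 35 members in J0571, beside 8.18% of all genes, 3 in J1721, beside 4.59%, and 2 in Q0990, beside 4.48%. DESeq2 also called 0 members in Q0990. The comparisons with C24 share its libraries. J0571 was therefore also set against J1721 and Q0990 together, without a C24 library, and there 3 members differed, beside 0.572%.

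GSTU11 kept most of its transcript under ABA in J0571. It had 2.87, 3.65 and 3.15 CPM in J0571 ABA libraries and 4.04, 4.72 and 4.44 CPM in J0571 mock libraries. The groups did not overlap, and the change of -0.45 ± 0.26 (SE; adjusted p = 0.244) was not called. In J1721 it had 0.286, 0.660 and 0.496 CPM under ABA and 3.05, 3.51 and 2.70 CPM in mock, and in Q0990 0.450, 0.0511 and 0.453 CPM under ABA and 3.37, 2.98 and 2.53 CPM in mock. Every ABA library of J0571 lay above every ABA library of the other 3 lines. The same held in mock roots, with 4.04 to 4.72 CPM in J0571 and 2.53 to 3.56 CPM in the other lines. That mock difference from C24, 0.49 on the log2 scale, was not called. The response in J0571 differed from that in C24 by 2.70 ± 0.43 (SE, log2; adjusted p = 0.00163) and from that in J1721 and Q0990 by 2.49 ± 0.36 (adjusted p = 4.24e-04). The first was called in all 17 alternatives, from 2.55 to 2.86, and the second in all 23.

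GSTF12 had 9.93, 8.05 and 7.14 CPM in J0571 ABA libraries and 17.3, 22.1 and 17.4 CPM in J0571 mock libraries. In J1721 it had 4.11, 2.27 and 2.58 CPM under ABA and 15.1, 12.4 and 16.6 CPM in mock, and in Q0990 2.68, 4.34 and 2.74 CPM under ABA and 12.6, 16.4 and 19.4 CPM in mock. It fell in every line, and the J0571 ABA libraries were above the ABA libraries of all other lines. The response in J0571 was less negative than in J1721 and Q0990 by 1.11 ± 0.24 (adjusted p = 0.0265), called in 14 of 23 alternatives. Against C24 the difference was 0.95 ± 0.28 and was not called (adjusted p = 0.202). GSTF12 was lost without any one of J0571 ABA library 1 or 2, J0571 mock library 1 or 3, J1721 ABA library 3, J1721 mock library 3, Q0990 ABA library 1 or 3, and without the mock libraries numbered 1, with adjusted p from 0.0502 to 0.123.

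GSTU26 (AT1G17190) differed far less. It had 121, 121 and 122 CPM in J0571 ABA libraries against 134, 157 and 144 CPM in J0571 mock libraries. The J1721 libraries held 114, 103 and 103 CPM under ABA and 160.3, 158 and 162 CPM in mock, and the Q0990 libraries 100.5, 111 and 109 CPM under ABA and 155, 163 and 165 CPM in mock. It fell in every line, by 0.26 in J0571 on the log2 scale. The response in J0571 exceeded that in J1721 and Q0990 by 0.33 ± 0.08 (adjusted p = 0.0442), and this call held in 5 of 23 alternatives.

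**Figure D4:**
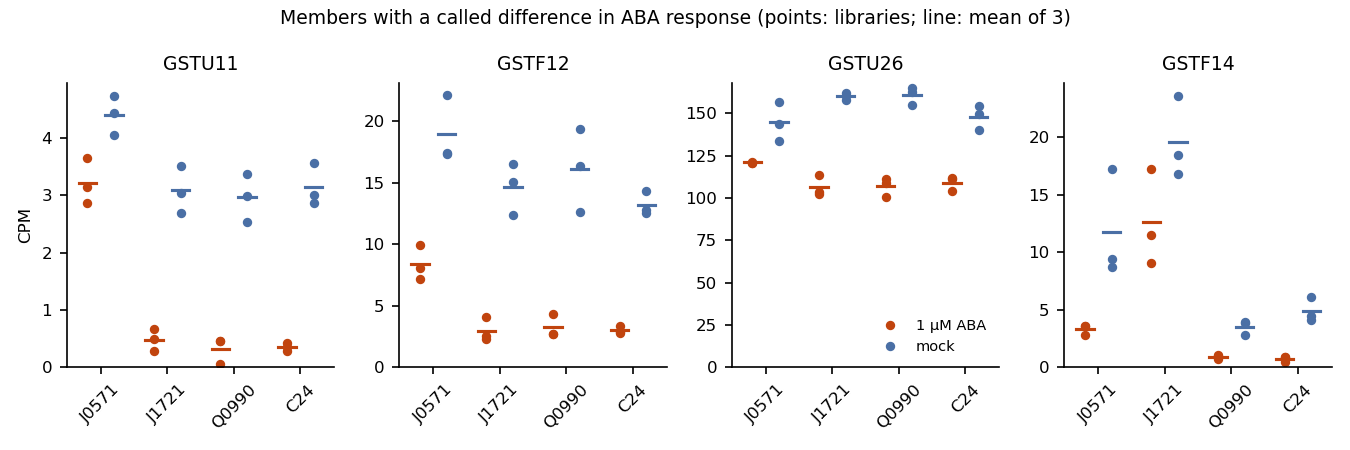
CPM in each library of the 4 members with a called difference in ABA response, in the 3 driver crosses and C24, ABA left of mock, with a line at the mean of 3. GSTU11 stays at 2.87 to 3.65 CPM under ABA in J0571 and at 0.66 CPM or less in the other lines. GSTF14 has its highest mean in J1721 under both treatments, and single mock libraries of J0571 and J1721 overlap.

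The response of J1721 alone was tested against C24 only, where the log2 change of GSTF14 was the most negative, at -2.78. GSTF14 responded less negatively in J1721 than in C24. It had 17.2, 11.5 and 9.08 CPM in J1721 ABA libraries and 23.5, 16.8 and 18.4 CPM in J1721 mock libraries, which overlapped. The change was -0.63 ± 0.24 (SE; adjusted p = 0.0531), just short of the threshold. It was called, at -0.93, without ABA library 1 (adjusted p = 0.00834), and also by DESeq2 (0.0397), with a replicate block (0.042), in a fit of the 2 groups compared (0.0454) and with no filter on low counts (0.0489). In J0571 it had 2.78, 3.58 and 3.56 CPM under ABA and 17.3, 9.37 and 8.72 CPM in mock, and in Q0990 0.946, 1.07 and 0.708 CPM under ABA and 2.79, 3.98 and 3.86 CPM in mock, and both fell, by 1.83 and 1.97 on the log2 scale. The response in J1721 differed from that in C24 by 2.15 ± 0.41 (adjusted p = 0.0227). It was called in 12 of 17 alternatives and lost without C24 ABA library 2 (adjusted p = 0.13), C24 mock library 2 (0.073), J1721 ABA library 1 (0.0747), J1721 mock library 2 (0.0723) or J1721 mock library 3 (0.0779).

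**Figure D5:**
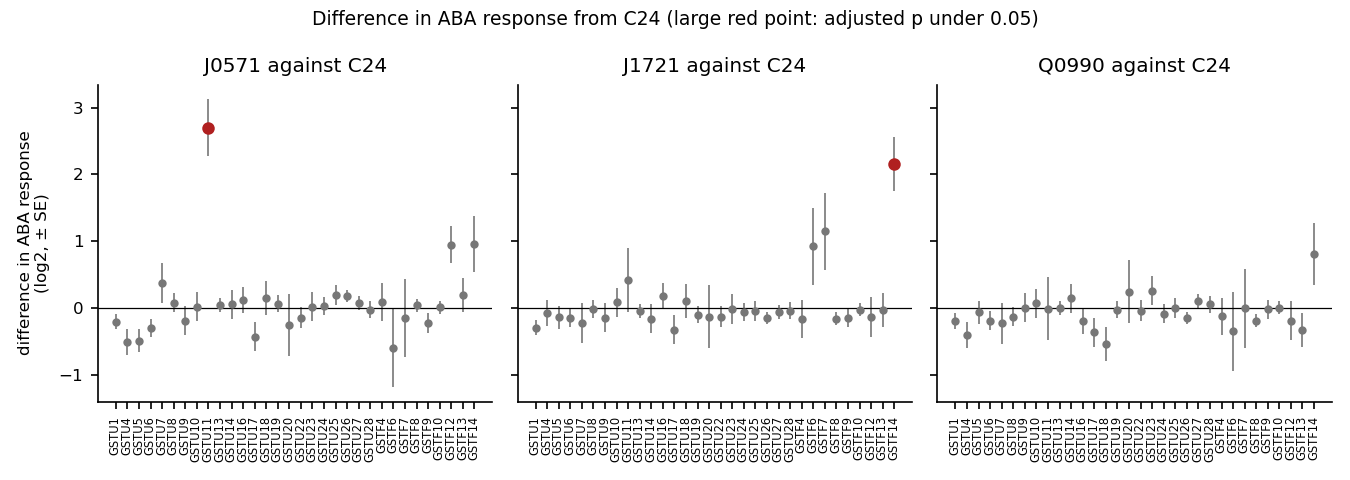
Difference in ABA response from C24 (log2, with SE) for the 32 tested members with a mean log2 CPM of at least 1, in J0571, J1721 and Q0990. GSTU11 at 2.70 in J0571 and GSTF14 at 2.15 in J1721 are the large red points, with adjusted p under 0.05, and no such point appears in Q0990.

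GSTF14 also led the differences between mock roots. In mock roots of J1721 it was higher than in C24 by 1.99 ± 0.25 (SE, log2; adjusted p = 3.90e-04), the only member called there, beside 0.0422% of all genes. All 3 J1721 mock libraries were above all 3 C24 mock libraries, and the call held in all 12 alternatives. In mock roots of J0571 it was higher by 1.26 ± 0.25 (adjusted p = 0.0222), again the only member called, beside 0.474%. There, J0571 mock library 1 was far above its replicates, and without it the difference was 0.88 (adjusted p = 0.218). The call was also lost without C24 mock library 1 (adjusted p = 0.166) or 3 (0.0911). Beyond GSTF14, 10 of 35 members reached an unadjusted p under 0.05 in this J0571 comparison when GSTF14 is counted among them. Its member differences were positive for 25 and negative for 10, with a median log2 value of 0.13, against -0.01 over all genes. Family sums were 8104 to 9304 CPM in J0571 mock libraries and 7780 to 7887 CPM in C24 mock libraries, and carry no test. For mock J1721, 2 of 35 members reached that unadjusted level. In mock roots of Q0990, 0 members were called by edgeR or DESeq2, beside 0.0469%, and 1 of 35 had an unadjusted p under 0.05, beside 5.24% of all genes. The GSTF14 difference there was -0.47 ± 0.27 (adjusted p = 0.906). The 3 comparisons share the C24 mock libraries. Root hair markers summed to 299.9 to 355 CPM in J1721 mock and 318 to 329 CPM in J0571 mock, against 245 to 286 CPM in C24 mock, and their part in these differences was not tested.

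Genes that supply or use glutathione beside the tau and phi classes moved modestly. Of 19 genes of glutathione metabolism and conjugate transport, 4 rose and 8 fell in C24, beside 18.6% and 15.4% of all genes, with a median log2 change of -0.23. The 3 largest were GPX6, a glutathione peroxidase-like enzyme, at -0.63 ± 0.09 (SE), ABCC1, a vacuolar pump for glutathione conjugates, at -0.53 ± 0.10, and GPX2 at 0.50 ± 0.09. Of 11 genes of other GST classes 3 rose and 3 fell, led by the dehydroascorbate reductases DHAR2 at -0.68 ± 0.10 and DHAR3 at -0.55 ± 0.11 and the lambda gene GSTL1 at -0.63 ± 0.18. GSTL1 was also higher in mock roots of J0571 than in C24, by 0.84 ± 0.17 (adjusted p = 0.0252).

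The counts that follow stand beside 18.6% of all genes called higher and 15.4% called lower in C24. Of 8 markers of xenobiotic and oxidative stress, 2 rose and 1 fell. Their sum in C24 was nonetheless lower under ABA, at 1076 to 1103 CPM against 1503 to 1839 CPM in mock, and it follows the most abundant genes. OPR1, a reductase induced by xenobiotics, fell by 1.54 on the log2 scale, and the stress regulators NAC032 and ZAT12 rose by 0.63 and 0.41. Of 7 touch and wounding genes, 6 were tested and 3 rose, led by VSP2 at 4.65 ± 0.42, TCH4 at 1.01 ± 0.28 and JAZ1 at 0.43 ± 0.12. Of 8 anthocyanin genes, the pathway in which GSTF12 acts, 4 were tested and 2 fell, DFR at -1.19 ± 0.44 and CHS at -0.34 ± 0.11. Of 9 aliphatic glucosinolate genes, 7 were tested and all 7 fell, led by CYP83A1 at -4.98 ± 0.66, BCAT4 at -2.87 ± 0.63 and MAM1 at -2.82 ± 0.56. No gene of these lists was called in a difference of ABA response between lines.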

How the data were processed

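RNA sequencing libraries from 24 root pools were read as deposited. The authors deposited 1 table of raw read counts per gene for 24 libraries. HISAT2 and HTSeq are named per the submitters' processing notes. Not given in the sources used here are the strand setting, the annotation, the build and the tool versions. Libraries were made with a NEBNext Ultra kit and read as pairs of 150 bases, per the labels' protocols.

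Members were matched by locus and symbol to RefSeq TAIR10.1, which gave exon lengths, neighbours, overlaps and upstream windows of 250 bases. It matched 32548 of 34218 features. Counts of 38542817 to 61555387 per library were scaled with trimmed means of M values (TMM) and tested in 1 quasi-likelihood fit of 8 group means with edgeR 4.0.16 (limma 3.58.1, R 4.3.3), after edgeR's filter on low counts. P-values were adjusted by Benjamini-Hochberg over 21315 genes, with calls at an adjusted p under 0.05. CPM were computed on normalized library sizes. Floors of 3 counts and counting limits cover counting error only. The fit was also run on simulated data with known changes, and the outcome is not given here. Those changes were placed only in genes above a set mean level, so the run does not cover GSTU3 or GSTU21. Replicates differed by more than counting noise, with chi-square over degrees of freedom of 6.79 to 34.8, so none was counted as a copy.

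Genes given in full were the 5 largest rises and falls in C24 among called members with a mean log2 CPM of at least 1, every member called in a response difference, the 3 largest called in each mock difference, and members of 1 array that moved in opposite directions. Other lists were named by their 3 largest called changes in C24. The members and lists were chosen with earlier results of these data known. Alternatives were DESeq2 1.42.0, its size factors in edgeR, no filter, a replicate block, a fit of the 2 groups compared, CPM on raw totals, and leaving out each library or the mock libraries numbered 1.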

Additional observations from a re-analysis of the deposited data

Results flagged for a closer look

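The ABA response of 4 members differed between lines in the interaction test, which compares the response itself and not the calls. GSTU11 responded less negatively in J0571 than in C24 by 2.70 on the log2 scale, and than in J1721 and Q0990 by 2.49. GSTF14 responded less negatively in J1721 than in C24 by 2.15. Against J1721 and Q0990, J0571 also responded less negatively for GSTF12, by 1.11, and for GSTU26, by 0.33. The values of each in every library are given above, and the 2 GSTU11 differences share the J0571 libraries.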

How the results depend on the processing

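No member called in a comparison changed direction under any alternative run for it. In the 11 comparisons other than the average response, the 101 calls were recomputed 1252 times in all, and 1177 of these kept the call while 75 lost it. Members not called gained a call 28 times over all comparisons, in 15 pairs of a member and a comparison. With each library left out in turn, the members called were 21 to 25 in J0571, 19 to 24 in J1721, 22 to 24 in Q0990, 22 to 25 in C24 and 30 to 31 in the average response. The counts were 1 to 1 for the response of J0571 against C24, 0 to 1 for J1721 against C24, 0 to 0 for Q0990 against C24, and 1 to 3 for J0571 against J1721 and Q0990. They were 0 to 2 for mock J0571, 1 to 1 for mock J1721 and 0 to 0 for mock Q0990, and a group left with 2 libraries shares the pooled spread. Without the mock libraries numbered 1, J0571 against J1721 and Q0990 gave 1 member in place of 3, and mock J0571 gave 0 in place of 1. Mock J0571 also gave 0 in a fit of the 2 groups compared. GSTU24 was called there without J0571 mock library 3 (adjusted p = 0.0466). The cause of these changes was not tested.

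Replicate numbers were not used to pair libraries in the main fit, and the labels do not say what libraries of the same number shared. The correlations of deviations of 48 same-numbered pairs ran from -0.44 to 0.34, and 17 were over 0.1. Among mock libraries numbered 1 they were 0.34 for J0571 and J1721, 0.33 for C24 and Q0990, and -0.44 for C24 and J1721. With the replicate block, 25 members were called in C24, 26 in J0571, 22 in J1721, 24 in Q0990 and 31 in the average. It gave 1, 1 and 0 for the response differences of J0571, J1721 and Q0990 from C24, 2 in place of 3 for J0571 against J1721 and Q0990, and 1, 1 and 0 for the mock differences. Low counts limit GSTU3 and GSTU21 and the 6 members below the filter, for which a change was not detectable or rests on few counts.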

Other observations

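GSTU20 and the summed CPM of the 9 aliphatic glucosinolate genes are set side by side here because the same mock library stood apart for both in each line. In C24 mock libraries 1 to 3, GSTU20 had 16.5, 49.9 and 39.7 CPM, and the glucosinolate sum was 110, 291 and 225 CPM. In Q0990 mock libraries GSTU20 had 16.6, 44.6 and 43.8 CPM beside sums of 126, 260 and 209 CPM. In J0571 mock libraries GSTU20 had 86.5, 62.8 and 58.4 CPM beside sums of 422, 293 and 270 CPM, and in J1721 mock libraries 58.4, 39.9 and 42.1 CPM beside 285, 183 and 191 CPM. Mock library 1 was the lowest of 3 for both measures in Q0990 and C24 and the highest of 3 for both in J0571 and J1721. On the second principal component of all tested genes, the same libraries lay at 18.5 in Q0990 and 26.0 in C24. They lay at -19.7 in J0571 and -12.4 in J1721, so the split of lines was not particular to these genes. Under ABA, GSTU20 ran from 8.72 to 21.4 CPM and the sum from 61.4 to 97.4 CPM over the 12 libraries. The comparison was chosen after the values were seen and carries no test.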
